A study of Mus musculus with 18 samples.

Results

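Inflammasomes are protein platforms that start inflammatory cell death and the release of IL-1 family cytokines, and 10 genes of this pathway were followed in B16F10 tumors injected with a STING agonist. They were the sensors Nlrp3 and Aim2, the caspases Casp1 and Casp4, the pore former Gsdmd, the cytokines Il1a, Il1b and Il18, and the inhibitors Il1rn and Il18bp. The genes were chosen by name and found by their Ensembl identifiers among the 50600 rows of the count table. All 10 were among the 16927 genes that passed the filter on low counts.

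An inflammasome sensor such as NLRP3, which responds to many kinds of cell damage, or AIM2, which binds DNA in the cytosol, recruits caspase-1, and caspase-1 cuts pro-IL-1β, pro-IL-18 and gasdermin D. Caspase-4 (also called caspase-11 in mice) is activated by bacterial lipopolysaccharide in the cytosol and cuts gasdermin D as well, and the freed gasdermin D fragment forms pores through which a cell can die by pyroptosis. IL-1 receptor antagonist (from Il1rn) and IL-18 binding protein (from Il18bp) hold the released cytokines in check. Only RNA was measured here, so cleavage, pore formation and secretion were not seen.

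B16F10 is a mouse melanoma cell line, grown here as a single tumor under the skin of the right flank of young female C57BL/6 mice. CDN2 (CL656 in the sample labels) is a cyclic dinucleotide agonist of STING, and exoCDN2 is the same compound loaded into extracellular vesicles (EVs) from the human line HEK293. Whole tumors were taken 24 h after the last intratumoral injection, with 2 tumors in each of 9 groups. Mice given 1 dose received PBS, unloaded EVs, exoCDN2 with 0.1 µg of the compound, or free CDN2 at 20 or 100 µg, and mice given 2 doses, 3 days apart, received PBS, exoCDN2 (0.1 µg) or free CDN2 (20 µg). A further 2 tumors received 2 doses of free CDN2 whose amount the labels do not state, and they were kept apart. Every value comes from a mixture of melanoma, immune and stromal cells, in which more cells of a type and more RNA per cell cannot be told apart.

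Total expected counts ran from 21608895 to 65983630 per tumor, and the smallest total belonged to tumor 1 of CDN2 (20 µg, 2 doses). The summed level of 8 melanoma genes was 21178 to 26927 CPM (read counts scaled by library size and TMM factor, on the usual per-library scale of edgeR) in every tumor except those of exoCDN2 (16128 and 17415) and CDN2 (20 µg) after 2 doses (7282 and 13494). The same CDN2 tumors had the highest skeletal muscle sums (5 genes, 3025 and 1819 CPM, against 2.8 to 498 elsewhere) and the highest neutrophil sums (10 genes, 936 and 226 CPM, against 2.37 to 76.7 elsewhere). Tumor 1 of that group therefore stood apart, and results that rest on it are also given without it.

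The genes lie at scattered places in the mouse genome (GRCm38, GENCODE M21), and each is annotated as protein-coding. Casp1 (chromosome 9, 5298517 to 5307265) and Casp4 (chromosome 9, 5308828 to 5336783) are neighbours on the plus strand, and Il18 is on the same chromosome (50554827 to 50581840). Il1a (129299610 to 129309972) and Il1b (129364570 to 129371139) are both on the minus strand of chromosome 2, where Il1rn is also found (24336853 to 24351494). Nlrp3 is on chromosome 11 (59541568 to 59566956), Aim2 on chromosome 1 (173350879 to 173466040), Gsdmd on chromosome 15 (75862327 to 75867408) and Il18bp on chromosome 7 (102014885 to 102018690). Exons overlap a gene on the other strand over 222 bases in Il1a (Gm14023), 25 in Il1b (Il1bos) and 80 in Il18bp (Numa1). The sources used here do not say whether reads were counted by strand, so reads in these stretches cannot be assigned for certain.

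In tumors given PBS once, all of these genes were expressed at a low level. On the scale of mean CPM per kilobase of exon, which allows levels of different genes to be set side by side, Il18bp (4.55), Gsdmd (4.5), Casp1 (3.79) and Il18 (3.46) led. Il1b stood at 0.561, Nlrp3 at 0.229 and Il1a at 0.218 on the same scale. The levels in every tumor are drawn in the plot of CPM by group.

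**Figure D1:**
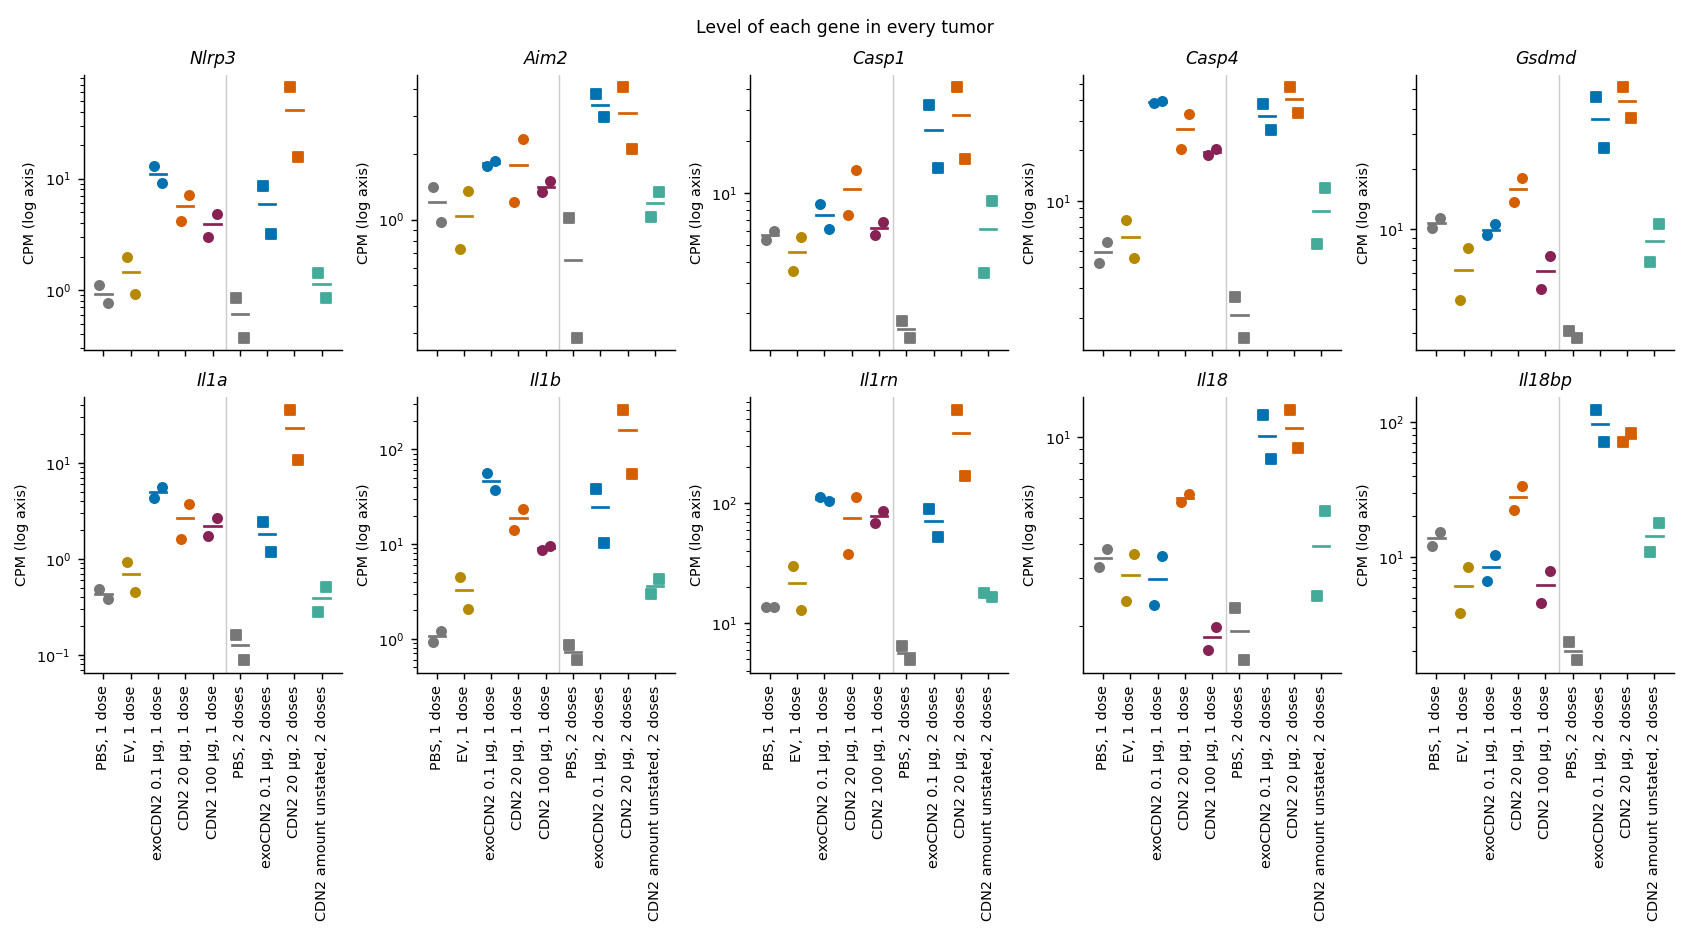
CPM (log axis) of each of the 10 genes in the 18 tumors, in 9 groups along the horizontal axis; circles are tumors after 1 dose, squares tumors after 2 doses, and a line marks the mean of 2 tumors. Il1b runs from 0.593 CPM in a PBS tumor to 263 CPM in a tumor given 2 doses of CDN2 (20 µg), whereas Aim2 stays between 0.286 and 4.08 CPM.

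The first question was what a single dose of the loaded vesicles did in comparison with PBS. Nlrp3, Casp4 of the lipopolysaccharide branch, and the IL-1 genes rose, while Aim2, Casp1, Gsdmd, Il18 and Il18bp did not pass the test. Genes count as called changed where edgeR's quasi-likelihood test gave an adjusted p below 0.05 with a ratio over 2. By this rule 5 of the 10 genes were called higher with exoCDN2 after 1 dose and 0 lower, beside 2.62% of all tested genes called in either direction (2.20% higher and 0.425% lower). The median log2 difference of the 10 genes was 1.78, and that of all genes was -0.02.

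Nlrp3 was at 1.10 and 0.76 CPM in the PBS tumors and at 12.9 and 9.13 CPM in the exoCDN2 tumors. Its groups were well apart, and the fitted difference was 3.57 ± 0.74 (log2 ± SE, 11.8-fold, adjusted p = 0.0209). Casp4 was at 4.23 and 5.66 CPM with PBS and at 38.5 and 39.3 CPM with exoCDN2, and its difference of 2.97 ± 0.36 had the smallest adjusted p of the 10 genes (7.84-fold, adjusted p = 0.00058). The 2 exoCDN2 tumors were nearly alike in Casp4, whereas Nlrp3 varied more between them.

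Il1b, the main secreted product of the pathway, was at 0.92 and 1.22 CPM with PBS and at 55.9 and 36.9 CPM with exoCDN2. Its difference was 5.43 ± 0.84 (43-fold, adjusted p = 0.00345), the largest of the 10. Il1a, which encodes a cytokine that is active without cleavage by caspase-1, rose from 0.482 and 0.38 CPM to 4.35 and 5.55 CPM (3.51 ± 0.67, adjusted p = 0.0123). Il1rn rose beside its ligands, from 13.6 CPM in both PBS tumors to 114 and 104 CPM (3.00 ± 0.64, adjusted p = 0.0234).

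Casp1 (5.32 and 6.04 CPM with PBS, 8.66 and 6.14 with exoCDN2) gave a difference of 0.38 (adjusted p = 0.779). Gsdmd (10.1 and 11.4 against 9.30 and 10.6 CPM) and Il18 (3.29 and 3.86 against 2.38 and 3.61 CPM) overlapped between the groups. Il18bp was lower in both exoCDN2 tumors (6.66 and 10.3 CPM) than in the PBS tumors (12.1 and 15.4 CPM), at -0.70 with an adjusted p of 0.439. A missed threshold does not show equal levels.

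The number of calls after 1 dose depended on single tumors. Without PBS tumor 1 or without PBS tumor 2, Casp4 was the 1 gene still called (2.78, adjusted p = 0.0228, and 3.19, adjusted p = 0.0132). Without exoCDN2 tumor 1, 3 were called (Casp4, Il1a and Il1b), and without exoCDN2 tumor 2, 2 were called (Casp4 and Il1b). Nlrp3 kept a difference of 3.31 to 3.86 in these fits and Il1b one of 5.11 to 5.69.

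Neutrophil markers moved in the same comparison. Their sum was 6.64 and 6.46 CPM with PBS and 74.3 and 44.1 CPM with exoCDN2, and 3 of the 10 markers were called higher, with Camp at 0 in both tumors of either group and Ngp at 0 in both PBS tumors. The 13 monocyte and macrophage markers summed to 409 and 539 CPM with PBS and 403 and 380 CPM with exoCDN2. The part of cell number in the rise of Nlrp3 and the IL-1 genes was not tested.

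Casp4 and Nlrp3 are the 2 genes of the set with an NF-κB motif in the 250 bases before a RefSeq start (GRCm38.p6), and the 200 bases before each annotated gene start are shown for this reason, 5′ to 3′, with the matches in capitals. The Casp4 stretch is chr9:5308628-5308827 and the Nlrp3 stretch is chr11:59541368-59541567, both on the plus strand.
Casp4: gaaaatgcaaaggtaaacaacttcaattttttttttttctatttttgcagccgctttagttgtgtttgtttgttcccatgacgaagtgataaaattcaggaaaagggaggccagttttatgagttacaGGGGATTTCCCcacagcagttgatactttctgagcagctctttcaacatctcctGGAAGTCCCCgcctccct
Nlrp3: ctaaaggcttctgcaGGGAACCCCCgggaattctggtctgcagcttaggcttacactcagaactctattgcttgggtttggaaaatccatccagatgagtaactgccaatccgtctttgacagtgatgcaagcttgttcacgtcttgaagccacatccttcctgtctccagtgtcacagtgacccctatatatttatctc
The Casp4 stretch holds 2 separate runs and the Nlrp3 stretch 1. RefSeq gave 13 promoters for 9 of the 10 genes, with no entry for Gsdmd. Both strands were searched and overlapping matches were joined. The NF-κB motif occurs in 7.25% of all 32851 promoters of the same length, the ISRE core (GAAA, any 2 bases, GAAA) in 2.98% and the GAS motif TTCNNNGAA in 7.02%, and the latter pair matched in 0 of the 9 genes. A match is a run of letters and not a measured binding site, and nothing about a factor follows from its absence.

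Unloaded EVs were given to separate the vesicles from their cargo. In edgeR 0 of the 10 genes were called against PBS (0% of all genes called, 540 genes at an unadjusted p under 0.05), and DESeq2 also called 0 of the 10. Their median difference was 0.06 beside 0.00 for all genes. Il1b was at 4.54 and 2.08 CPM in the EV tumors, above both PBS tumors, with a difference of 1.64 and an adjusted p of 1. Il18bp (3.85 and 8.36 CPM) and Gsdmd (4.41 and 8.06 CPM) were below both PBS tumors, at -1.17 and -0.78, also with an adjusted p of 1.

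Against the EV tumors, 4 of the 10 genes were called higher with exoCDN2 (2.95% of all genes called, 2.52% higher and 0.425% lower), and their median difference was 1.56 beside -0.04. Casp4 (2.66, adjusted p = 0.000983), Il1b (3.79, adjusted p = 0.016), Il1a (2.82, adjusted p = 0.0314) and Nlrp3 (2.91, adjusted p = 0.0475) passed. Il1rn, at 29.9 and 13 CPM in the EV tumors, gave 2.33 with an adjusted p of 0.0672. Casp4 was called with any of these 4 tumors left out. It was alone without EV tumor 1, EV tumor 2 or exoCDN2 tumor 1, where Il1b gave 4.47 (adjusted p = 0.0579), 3.34 (adjusted p = 0.187) and 3.47 (adjusted p = 0.0814), and without exoCDN2 tumor 2 Il1b was called beside it.

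Free CDN2 at 20 µg raised a similar set of genes after 1 dose, although its amount was far above the 0.1 µg in the vesicles. Casp4, Il1b and Il1a were called higher than PBS, 3 of the 10 genes (3.14% of all genes called, 2.26% higher and 0.886% lower), and the median difference was 1.73 beside -0.00. Il1b was at 14.2 and 23.3 CPM (4.13 ± 0.81, 17.5-fold, adjusted p = 0.0132) and Casp4 at 20.4 and 33.0 CPM (2.43 ± 0.35, adjusted p = 0.00203). Il1a reached 1.62 and 3.73 CPM and lay just inside the threshold (2.63 ± 0.66, adjusted p = 0.0496), a call that was lost with RLE factors (adjusted p = 0.0514) and with the replicate block (adjusted p = 0.0561).

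Il1rn differed widely between the CDN2 tumors, at 37.6 and 114 CPM, and lay just outside the threshold (2.48, adjusted p = 0.05 after rounding). Nlrp3 was at 4.21 and 7.09 CPM, above both PBS tumors (2.61, adjusted p = 0.0766). Il18bp was also above both PBS tumors, at 22.5 and 33.6 CPM (1.03, adjusted p = 0.211). Without PBS tumor 1, 0 of the 10 genes were called, with Casp4 at 2.24 and an adjusted p of 0.0516. Without PBS tumor 2 or without CDN2 tumor 2, Casp4 was the 1 gene called, and Il1b was at 4.34 (adjusted p = 0.134) and 3.73 (adjusted p = 0.0937).

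At 100 µg of free CDN2, Casp4 was the 1 gene called against PBS (18.8 and 20.4 CPM, 2.00 ± 0.35, 3.99-fold, adjusted p = 0.00917), beside 2.44% of all genes called (1.82% higher and 0.620% lower). Il1b (8.58 and 9.49 CPM, 3.08, adjusted p = 0.0626) and Il1rn (68.6 and 86.8 CPM, 2.53, adjusted p = 0.0549) were above both PBS tumors without passing. The Casp4 call was lost without PBS tumor 1 (1.81, adjusted p = 0.14), without PBS tumor 2 (2.22, adjusted p = 0.0838) or without tumor 2 of the 100 µg group (1.93, adjusted p = 0.0581).

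Between the 2 amounts of free CDN2 the IL-18 pair differed. Il18bp was at 4.56 and 7.88 CPM with 100 µg against 22.5 and 33.6 CPM with 20 µg (-2.16, adjusted p = 0.0483), and Il18 was at 1.63 and 1.98 against 5.76 and 6.12 CPM (-1.71, adjusted p = 0.0484). These 2 genes were called lower (0.455% of all genes called, 0.230% higher and 0.224% lower), and the median of the 10 genes was -0.63 beside 0.01. Gsdmd followed the same order, with 5 and 7.36 against 13.7 and 18.1 CPM (-1.35, adjusted p = 0.0868). Both calls were lost with RLE factors and with the replicate block, and with any 1 of these 4 tumors left out 0 of the 10 genes were called.

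Comparing exoCDN2 (0.1 µg) with free CDN2 (20 µg) after 1 dose, edgeR called 0 of the 10 genes (0.608% of all genes called, 0.201% higher and 0.408% lower, and 3300 at an unadjusted p under 0.05), and DESeq2 called 1. Il1b was higher in both exoCDN2 tumors (1.30, adjusted p = 0.315). Il18bp was lower in both, at 6.66 and 10.3 against 22.5 and 33.6 CPM (-1.73, adjusted p = 0.0616).

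After 2 doses, given 3 days apart, each of the 10 genes was higher than in the matching PBS tumors. All 10 genes were called higher with exoCDN2, beside 11.3% of all genes called (8.87% higher and 2.48% lower), and their median difference was 3.70 beside 0.01. All 10 were also called higher with CDN2 (20 µg), beside 30.6% of all genes called (20.0% higher and 10.6% lower), with a median of 4.82 beside 0.00. The comparisons share their PBS tumors. Each gene's difference from PBS is drawn in the plot of log2 differences.

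**Figure D2:**
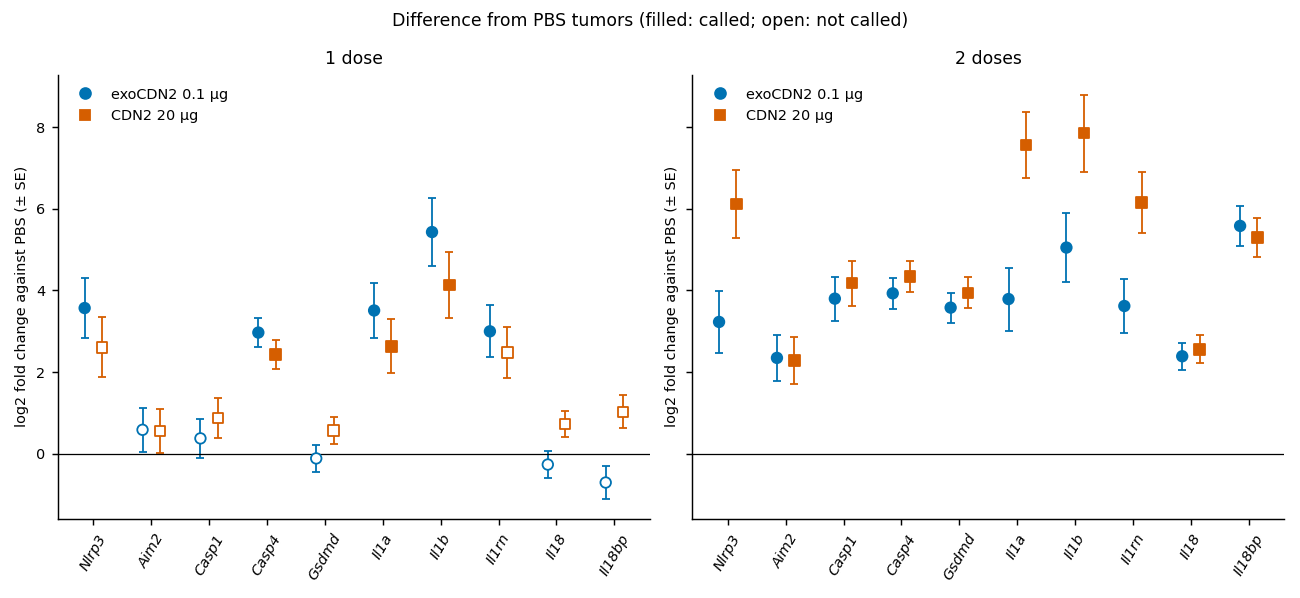
Log2 difference from PBS with its standard error (vertical axis) for the 10 genes (horizontal axis), after 1 dose (left) and 2 doses (right). Circles are exoCDN2 (0.1 µg), squares CDN2 (20 µg), and filled symbols are called changed. After 2 doses all symbols are filled, and the CDN2 values for Nlrp3, Il1a, Il1b and Il1rn lie well above the exoCDN2 values.

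Among the sensors, Nlrp3 was at 0.857 and 0.374 CPM with PBS, at 8.59 and 3.19 CPM with exoCDN2 (3.23 ± 0.76, 9.37-fold, adjusted p = 0.0118) and at 66.5 and 15.5 CPM with CDN2 (6.12 ± 0.83, 69.3-fold, adjusted p = 0.000181). The 3 groups did not overlap. Aim2 was at 1.02 and 0.286 CPM with PBS, at 3.79 and 2.98 CPM with exoCDN2 (2.35 ± 0.56, adjusted p = 0.0129) and at 4.08 and 2.12 CPM with CDN2 (2.28 ± 0.57, adjusted p = 0.00627). Aim2 overlapped between the treatments and was above PBS with either.

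Casp1 rose from 1.82 and 1.45 CPM with PBS to 32.2 and 13.9 CPM with exoCDN2 (3.80 ± 0.54, 13.9-fold, adjusted p = 0.000624) and to 41.0 and 15.8 CPM with CDN2 (4.18 ± 0.55, 18.1-fold, adjusted p = 0.000157). Casp4 was at 2.65 and 1.52 CPM with PBS, 37.7 and 26.6 with exoCDN2 (3.93 ± 0.38, adjusted p = 3.55e-05) and 47.9 and 33.4 with CDN2 (4.34 ± 0.38, adjusted p = 1.75e-05). Gsdmd, the shared substrate of both caspases, was at 3.08 and 2.86 CPM with PBS, 45.9 and 25.5 with exoCDN2 (3.58 ± 0.37, adjusted p = 6.51e-05) and 51.4 and 36.0 with CDN2 (3.94 ± 0.38, adjusted p = 2.82e-05). For all of these the treated tumors were above both PBS tumors, and the treatments overlapped each other.

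The IL-1 genes spread most widely. Il1b was at 0.857 and 0.593 CPM with PBS, 38.5 and 10.2 CPM with exoCDN2 (5.05 ± 0.85, 33-fold, adjusted p = 0.00186) and 263 and 55.5 CPM with CDN2 (7.85 ± 0.94, 230-fold, adjusted p = 9.35e-05). Il1a, with 8 and 4 counts in the PBS tumors, went from 0.163 and 0.0879 CPM to 2.42 and 1.19 CPM with exoCDN2 (3.79 ± 0.77, adjusted p = 0.00557) and 35.8 and 10.6 CPM with CDN2 (7.56 ± 0.81, adjusted p = 5.24e-05). Il1rn was at 6.49 and 4.92 CPM with PBS, 89.4 and 52.3 with exoCDN2 (3.62 ± 0.66, adjusted p = 0.003) and 603 and 169 with CDN2 (6.15 ± 0.74, adjusted p = 9.89e-05). In each of the 3 genes the CDN2 tumors lay above the exoCDN2 tumors, which lay above the PBS tumors.

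The IL-18 pair behaved differently. Il18 was at 2.33 and 1.49 CPM with PBS, 12 and 8.29 with exoCDN2 (2.39 ± 0.33, 5.24-fold, adjusted p = 0.000537) and 12.6 and 9.07 with CDN2 (2.56 ± 0.34, 5.89-fold, adjusted p = 0.000156). Il18bp was at 2.33 and 1.71 CPM with PBS, 124 and 71.1 with exoCDN2 (5.58 ± 0.48, 47.8-fold, adjusted p = 1.68e-05) and 70.8 and 82.6 with CDN2 (5.30 ± 0.48, 39.3-fold, adjusted p = 1.87e-05). The exoCDN2 and CDN2 tumors overlapped in both genes, and the inhibitor's fold was larger than that of its ligand with either treatment.

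Leaving out a tumor removed no call for CDN2 against PBS after 2 doses, where 10 genes were called in every such fit, but the sizes leaned on tumor 1. Without it the log2 difference of Nlrp3 was 4.66 in place of 6.12, that of Il1a 6.38 in place of 7.56, that of Il1b 6.27 in place of 7.85 and that of Il1rn 4.91 in place of 6.15. Casp1 (3.29) and Aim2 (1.71) were also lower without it, and Il18bp was at 5.37. In a fit of only the PBS and CDN2 tumors, Aim2 was not called (adjusted p = 0.0617). With exoCDN2, Nlrp3 and Aim2 were lost without exoCDN2 tumor 1 (2.35, adjusted p = 0.123, and 2.17, adjusted p = 0.0858), and these genes and Il1a were lost without PBS tumor 2 (Nlrp3 2.76, adjusted p = 0.117, Aim2 1.71, adjusted p = 0.0951, and Il1a 3.42, adjusted p = 0.0692).

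The treatments were then compared directly after 2 doses, at unequal amounts of 0.1 and 20 µg. Nlrp3 (-2.89 ± 0.69, adjusted p = 0.00916), Il1a (-3.77 ± 0.63, adjusted p = 0.00226), Il1b (-2.80 ± 0.71, adjusted p = 0.0122) and Il1rn (-2.53 ± 0.62, adjusted p = 0.0104) were lower with exoCDN2. These 4 of the 10 genes were called, beside 19.4% of all genes called (7.34% higher and 12.0% lower), and the median of the 10 was -0.39 beside 0.03. Aim2 (0.07), Casp1 (-0.38), Casp4 (-0.41), Gsdmd (-0.36), Il18 (-0.17) and Il18bp (0.28) did not pass, with adjusted p between 0.338 and 0.928.

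These 4 calls leaned on tumor 1 of the CDN2 group. Without it Il1a was still called (-2.61, adjusted p = 0.0096), while Nlrp3 (-1.44, adjusted p = 0.108), Il1b (-1.24, adjusted p = 0.166) and Il1rn (-1.30, adjusted p = 0.12) were not, and 1041 genes were called in all. Leaving out exoCDN2 tumor 2 also left Il1a alone (-3.34), with Nlrp3 at -2.34 (adjusted p = 0.0781), Il1b at -2.14 (adjusted p = 0.0859) and Il1rn at -2.20 (adjusted p = 0.0867).

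The neutrophil sum separated the same tumors, at 3.65 and 2.37 CPM with PBS, 76.7 and 26.1 with exoCDN2 and 936 and 226 with CDN2. All 10 of its markers were called higher with CDN2 than with PBS, 6 of 10 with exoCDN2 than with PBS, and 9 of 10 were lower with exoCDN2 than with CDN2. Camp and Ngp were at 0 in both PBS tumors, and none of the markers was at 0 in both tumors of a treated group. Nlrp3 per unit of the neutrophil sum ranged from 0.0686 to 0.282 over the 18 tumors and Il1a from 0.0315 to 0.127. After 2 doses the Nlrp3 ratio was 0.235 and 0.157 with PBS, 0.112 and 0.122 with exoCDN2 and 0.071 and 0.0686 with CDN2. The Il1rn ratio was 1.78 and 2.07, 1.17 and 2.01, and 0.643 and 0.749 in the same order. For both genes the CDN2 tumors were the lowest of all 18. Il1b per unit of the neutrophil sum was 0.235 and 0.25 with PBS, 0.502 and 0.391 with exoCDN2 and 0.281 and 0.246 with CDN2 after 2 doses. After 1 dose it was 0.139 and 0.189 with PBS, 0.753 and 0.837 with exoCDN2 and 0.881 and 0.64 with CDN2 (20 µg). The share of neutrophils in these differences was not tested.

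**Figure D3:**
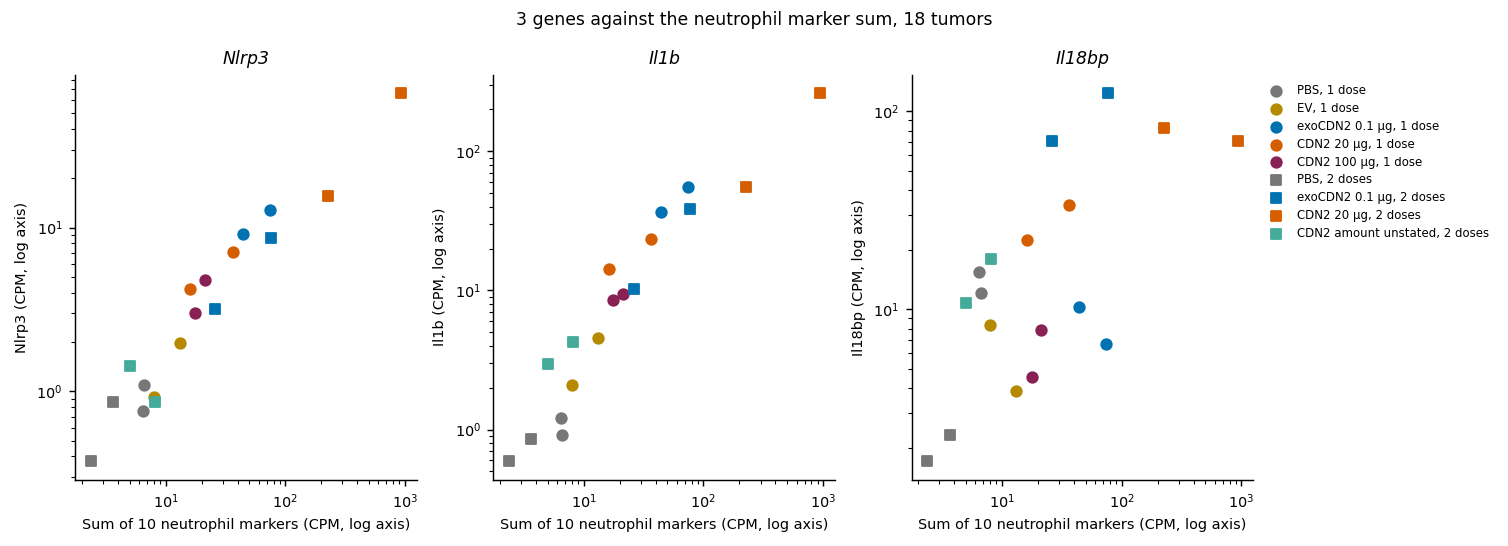
CPM of Nlrp3, Il1b and Il18bp (vertical, log axis) against the sum of 10 neutrophil markers in CPM (horizontal, log axis), 1 point for each of the 18 tumors, coloured by group. Nlrp3 and Il1b climb with the sum up to the CDN2 (20 µg, 2 doses) tumors at 936 and 226 CPM, while Il18bp is highest, at 124 CPM, in a tumor whose neutrophil sum is 76.7 CPM.

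Il18bp and Gsdmd did not follow the neutrophil sum in this way. Per unit of the sum of 13 monocyte and macrophage markers, Il18bp was 0.00711 and 0.00624 with PBS, 0.112 and 0.0967 with exoCDN2 and 0.0482 and 0.108 with CDN2 after 2 doses. Gsdmd per unit of that sum was 0.00942 and 0.0104, 0.0415 and 0.0347, and 0.035 and 0.047 in the same order. The monocyte and macrophage sum itself was 327 and 275 CPM with PBS, 1106 and 735 with exoCDN2 and 1470 and 767 with CDN2. Both genes were thus higher per unit of these markers in each treated tumor than in the PBS tumors. The same held for Nlrp3, Casp1, Casp4, Il1a, Il1b, Il1rn and Il18. Casp1, for example, was 0.00555 and 0.00528 with PBS, 0.0291 and 0.0189 with exoCDN2 and 0.0279 and 0.0205 with CDN2. Aim2 differed, as its CDN2 tumors (0.00277 in both) lay between the PBS tumors (0.00312 and 0.00104).

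The effect of the second dose itself was asked within each treatment. With PBS alone, Il18bp fell from 12.1 and 15.4 to 2.33 and 1.71 CPM (-2.76 ± 0.44, adjusted p = 0.00649) and Gsdmd from 10.1 and 11.4 to 3.08 and 2.86 CPM (-1.84 ± 0.35, adjusted p = 0.0238). These 2 of the 10 genes were called, both lower, beside 1.10% of all genes called (0.0473% higher and 1.05% lower), with a median of -1.24 beside 0.01. Casp1 (-1.79, adjusted p = 0.163) and Casp4 (-1.23, adjusted p = 0.164) were also lower in both later tumors. The Il18bp call was lost without PBS tumor 2 of either dose number (-2.58, adjusted p = 0.0508 for the tumor of 1 dose, and -2.55, adjusted p = 0.147 for the tumor of 2 doses), and the Gsdmd call was lost without any 1 of the 4 tumors.

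T cell markers (8 genes) summed to 9.64 and 11.1 CPM in the PBS tumors of 1 dose and to 3.06 and 1.43 CPM in those of 2, and 1 of them, Cd3e, was called lower (-3.38, adjusted p = 0.0304). Keratinocyte markers, of which edgeR called none, had a sum over 11 genes of 148 and 84.2 CPM after 1 dose and 0.714 and 0.154 CPM after 2 doses, Ivl at 0 in the latter. The part of either list in the fall of Il18bp and Gsdmd was not tested. The number of doses also goes with tumor age in this design, and dose number and age cannot be told apart.

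With exoCDN2, the genes of the IL-18 and gasdermin side rose from 1 to 2 doses, and those of the IL-1 side did not pass the test. Il18bp (3.52, 11.5-fold, adjusted p = 0.00165), Gsdmd (1.84, adjusted p = 0.0063), Il18 (1.75, adjusted p = 0.0063) and Casp1 (1.64, adjusted p = 0.0488) were called, the last not with RLE factors (adjusted p = 0.0562), the replicate block (adjusted p = 0.0642) or all 18 tumors (adjusted p = 0.0657). These were 4 of the 10 beside 7.44% of all genes called (5.10% higher and 2.34% lower), with a median of 0.31 beside 0.03. Nlrp3 (-0.91, adjusted p = 0.406), Il1a (-1.46, adjusted p = 0.128), Il1b (-0.93, adjusted p = 0.41) and Il1rn (-0.62, adjusted p = 0.545) had negative values that did not pass. Without exoCDN2 tumor 1 of either dose number, Il18bp was the 1 gene called, with Gsdmd at 1.74 (adjusted p = 0.0885) and 1.36 (adjusted p = 0.0774). In the same comparison 7 of 8 T cell markers (summing to 2.76 and 4.97 CPM after 1 dose and 43.1 and 34 CPM after 2), 3 of 5 NK cell markers (4.59 and 4.62 against 29.3 and 20.7 CPM) and 6 of 13 monocyte and macrophage markers (403 and 380 against 1106 and 735 CPM) were called higher, and their part was not tested.

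With CDN2 (20 µg), both sides rose with the second dose. Nlrp3 (2.94, adjusted p = 0.00757), Il1a (3.20, adjusted p = 0.00296), Il1b (3.17, adjusted p = 0.00661), Il1rn (2.43, adjusted p = 0.011), Gsdmd (1.53, adjusted p = 0.00549), Casp1 (1.51, adjusted p = 0.0309) and Il18bp (1.51, adjusted p = 0.0125) were called, 7 of the 10 beside 20.8% of all genes called (14.4% higher and 6.36% lower). Il18 passed on its adjusted p (0.039) but not on the ratio (1.91-fold). Without tumor 1 of the 2-dose group 3 genes were called (Gsdmd, Il1a and Il18bp), with Nlrp3 at 1.48 and Il1b at 1.59, and without tumor 1 of the 1-dose group Il1a alone was called. All 10 neutrophil markers (16.1 and 36.4 CPM after 1 dose, 936 and 226 after 2) and 7 of 13 monocyte and macrophage markers (386 and 698 against 1470 and 767 CPM) were called higher in the same comparison, and their part was not tested.

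Whether these changes differed between treatments was tested by interaction terms. The step from 1 to 2 doses was smaller with exoCDN2 than with CDN2 for Nlrp3 (-3.85, adjusted p = 0.0313), Il1a (-4.66, adjusted p = 0.0149), Il1b (-4.10, adjusted p = 0.0298) and Il1rn (-3.06, adjusted p = 0.0436), and larger for Il18bp (2.01, adjusted p = 0.043). The Il1rn term was not called with the replicate block (-2.92, adjusted p = 0.0619). These were 5 of the 10 genes beside 8.31% of all genes called (2.97% higher and 5.34% lower). All 5 calls were lost without tumor 1 of either exoCDN2 group, tumor 2 of exoCDN2 (2 doses) or tumor 1 of CDN2 (1 dose), where Il1a was at -4.84, -5.25, -4.23 and -4.19. Without tumor 2 of exoCDN2 (1 dose) or tumor 1 of CDN2 (2 doses) Il1a was the 1 gene called. The corresponding terms against PBS called 4 of the 10 genes larger after 2 doses of exoCDN2 (6.82% of all genes called, 5.12% higher and 1.70% lower) and 9 after 2 doses of CDN2 (16.8% of all genes called, 11.7% higher and 5.16% lower). The change from 1 to 2 doses of PBS enters the terms of either treatment. The 9 became 4 without tumor 1 of CDN2 (1 dose) or PBS tumor 2 (2 doses) and 5 without PBS tumor 2 (1 dose).

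Within each tumor, the balance of inhibitor and ligand was read as a ratio of counts per kilobase, a description with no test. Il1rn to Il1b was 5.08 and 3.84 with PBS after 1 dose, 0.703 and 0.968 with exoCDN2, 0.91 and 1.68 with CDN2 (20 µg) and 2.75 and 3.15 with CDN2 (100 µg). After 2 doses it was 2.61 and 2.86 with PBS, 0.8 and 1.77 with exoCDN2 and 0.789 and 1.05 with CDN2. It was also 2.27 and 2.15 with unloaded EVs and 2.08 and 1.34 with CDN2 of unstated amount. The ratio was thus below that of the PBS tumors of the same dose number in every other group, unloaded EVs among them.

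Il18bp to Il18 moved the other way after 2 doses. It was 0.341 and 0.391 with PBS after 2 doses, 3.54 and 2.92 with exoCDN2 and 1.92 and 3.1 with CDN2, so the inhibitor's transcript passed that of its ligand per kilobase in all 4 treated tumors. After 1 dose the same ratio was 1.25 and 1.36 with PBS, 0.956 and 0.97 with exoCDN2 and 0.532 and 0.774 with unloaded EVs. In these groups it was thus below PBS, as Il1rn to Il1b was. With free CDN2 after 1 dose it was 1.33 and 1.87 at 20 µg and 0.951 and 1.36 at 100 µg. Casp4 to Casp1 was 0.32 and 0.378 with PBS and 1.79 and 2.58 with exoCDN2 after 1 dose, and 0.589 and 0.422 against 0.472 and 0.776 after 2 doses. With free CDN2 after 1 dose it was 1.11 and 0.986 at 20 µg and 1.32 and 1.22 at 100 µg. With unloaded EVs it was 0.874 and 0.334. Casp4 was thus above or near Casp1 per kilobase in the tumors given the agonist once in either form, with the higher EV tumor not far below them. It was below Casp1 in all tumors of 2 doses.

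**Figure D4:**
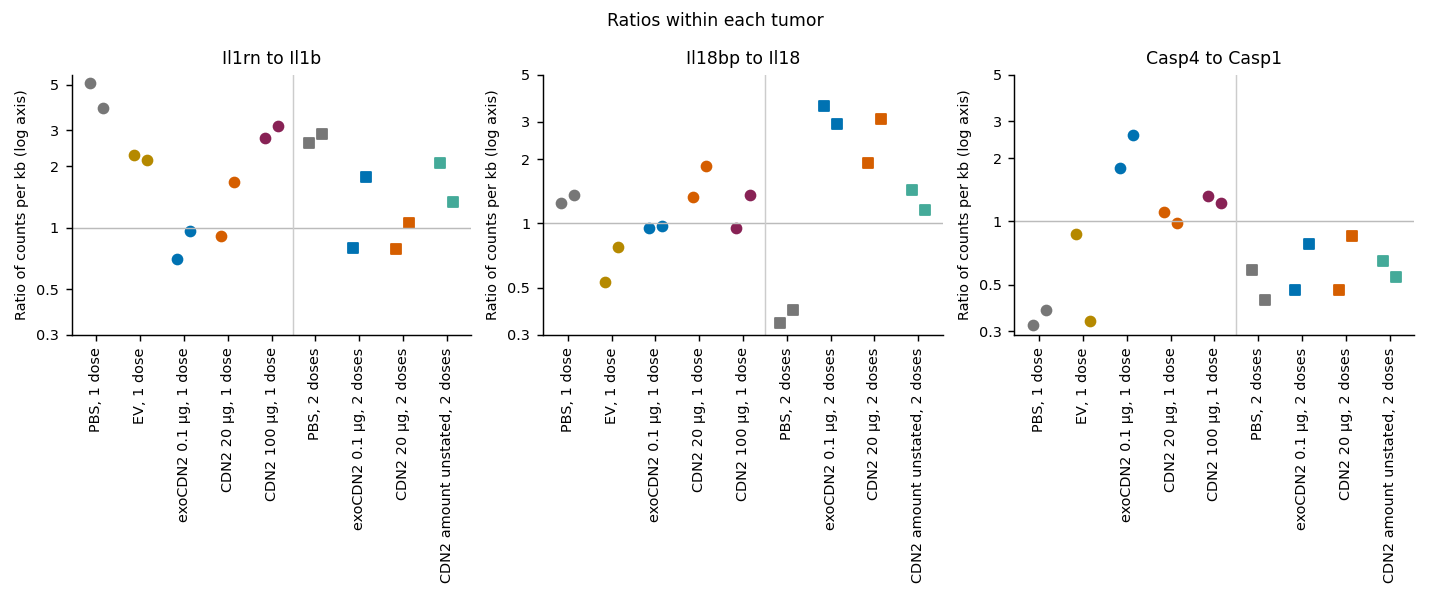
Ratio of counts per kilobase within each tumor (log axis) for Il1rn to Il1b, Il18bp to Il18 and Casp4 to Casp1, by group; a point is a tumor and the horizontal line marks equal levels. Il18bp to Il18 lies at 0.341 and 0.391 in the PBS tumors of 2 doses and above 1 in all 4 tumors given 2 doses of exoCDN2 or CDN2 (20 µg).

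The order of the genes within a group changed with treatment on this per-kilobase scale. Il1b led in tumors given exoCDN2 once (24.3 CPM per kilobase, ahead of Il1rn at 19.7) and in those given 2 doses of CDN2 (20 µg) (83.5, ahead of Il1rn at 69.7). Il18bp led in tumors given 2 doses of exoCDN2 (32.2, ahead of Casp1 at 15.4). Across the 9 groups, CDN2 (20 µg, 2 doses) had the highest mean of 8 genes, and exoCDN2 (2 doses) had the highest mean of Aim2 and Il18bp. Of the 8 neighbouring pairs in each gene's order of groups, between 3 (Il1rn) and 7 (Aim2) overlapped in their tumors.

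Over the 16 tumors of known amount, Nlrp3, Casp4, Il1a, Il1b and Il1rn rose and fell together in log2 CPM, with Pearson's r of 0.908 to 0.984 for their pairs. Gsdmd, Il18 and Il18bp formed a second such set (0.949 to 0.982), and Il1rn with Il18 gave 0.569. These values describe tumors that share treatment groups and cell mixtures, and they carry no test. By the same measure the gene most like Nlrp3 was Il1b (0.984), followed by Fas (0.982), and the gene most like Casp4 was Ifi209 (0.99). Il1b was most like Fas (0.987), Il1a and Il1rn were most like each other (0.984), and the genes most like Gsdmd and Il18bp were the MHC class I genes H2-T22 (0.989) and H2-T23 (0.993).

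In the tumors given 2 doses of free CDN2 at an unstated amount, the rise was smaller than with 2 doses of 20 µg. The median difference of the 10 genes from PBS was 1.59, beside 0.01 for all genes, against 4.82 with 20 µg. Il18bp (10.8 and 18 CPM, 2.83, 7.09-fold, adjusted p = 0.00473) and Casp4 (5.48 and 12 CPM, 2.06, 4.16-fold, adjusted p = 0.0269) were called higher than PBS after 2 doses, 2 of the 10 genes beside 0.959% of all genes called (0.918% higher and 0.0409% lower). Il1b was at 2.96 and 4.23 CPM (2.29, adjusted p = 0.271), far below the 263 and 55.5 CPM of the CDN2 (20 µg) tumors, and Nlrp3 was at 1.42 and 0.857 CPM (0.88, adjusted p = 0.723), its lower tumor level with the higher PBS tumor after rounding. Without tumor 1 of this group 4 genes were called. Both calls were lost without tumor 2 of this group (Il18bp 2.42, adjusted p = 0.0649, Casp4 1.39, adjusted p = 0.408) and without PBS tumor 2 (Il18bp 2.62, adjusted p = 0.139, Casp4 1.71, adjusted p = 0.35).

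Other genes of the pathway were read from lists written for this tissue and treatment. The shares of all genes called higher, for comparison, were 2.20% with exoCDN2 and 2.26% with CDN2 (20 µg) after 1 dose, and 8.87% and 20.0% after 2 doses. A further 21 genes were tested from a list of inflammasome sensors and adaptors that also holds genes of the PYHIN family. Of these, 7 were called higher with exoCDN2 and 9 with CDN2 (20 µg) after 1 dose. After 2 doses 16 and 17 were called higher, with 0 lower in each comparison. Those with the smallest p after exoCDN2 once were the interferon-inducible PYHIN genes Ifi205 (3.95 ± 0.54, adjusted p = 0.00151), Ifi207 (2.60 ± 0.41) and Pyhin1 (3.41 ± 0.60). After 2 doses Zbp1, a sensor of left-handed nucleic acid helices, led with both exoCDN2 (3.49 and 2.70 CPM with PBS against 427 and 257 CPM, 6.77 ± 0.52, adjusted p = 7.29e-06) and CDN2 (235 and 343 CPM, 6.59 ± 0.51). Pycard, the ASC adaptor that links sensors to caspase-1, was called with CDN2 after 2 doses (1.18, adjusted p = 0.000511) and gave 0.72 with exoCDN2, where its ratio of 1.64 missed the limit. Among the PBS tumors, 5 of the 21 genes were called lower after 2 doses than after 1, beside 1.05% of all genes called lower. Without tumor 1 of CDN2 after 2 doses, 15 of these 21 genes were called against PBS.

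Of 19 genes that regulate inflammasomes, 6 were called higher after 1 dose with exoCDN2 and 6 with CDN2 (20 µg), and 11 and 9 after 2 doses. With PBS, 6 of the 19 were called lower after 2 doses than after 1, beside 1.05% of all genes called lower. The step from 1 to 2 doses of exoCDN2 called 1 higher and 2 lower, beside 5.10% and 2.34% of all genes. With CDN2 (20 µg) it called 3 higher and 3 lower, beside 14.4% and 6.36% of all genes. Gbp5, a guanylate-binding protein that promotes inflammasome assembly, was at 19.7 and 22.8 CPM with PBS and 250 and 275 CPM with exoCDN2 after 1 dose (3.62 ± 0.38, adjusted p = 0.000238). Tnfaip3, which encodes the NF-κB inhibitor A20, rose as well (3.50 ± 0.41, adjusted p = 0.000547). After 2 doses of exoCDN2 the smallest p belonged to Trim30a (4.89 ± 0.30, adjusted p = 1.64e-06), followed by Gbp3 (5.97 ± 0.38).

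Among the gasdermin and membrane rupture genes, those called higher with exoCDN2 after 2 doses included Gzmb (1.06 and 0.615 CPM with PBS against 124 and 59.9 CPM, 6.76 ± 0.60) and Gzma (6.47 ± 0.72), which encode granzymes of cytotoxic lymphocytes that can cut gasdermins. Gsdmc was lower (-1.35 ± 0.20, adjusted p = 0.000698). T cell markers (8 genes, 3.06 and 1.43 CPM with PBS against 43.1 and 34 CPM) and NK cell markers (5 genes, 2.29 and 1.03 against 29.3 and 20.7 CPM) were higher in the same tumors, and their part in the granzyme values was not tested. With CDN2 after 2 doses, 3 of the 8 genes tested were called higher beside 20.0% of all genes (Gzmb, Gzma and Ninj1, the last of which encodes a protein of plasma membrane rupture, 2.17 ± 0.27).

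Of the IL-1 family ligands outside the set, Il33 and Il36g passed the filter on low counts. Il33 was at 8.87 and 7.84 CPM with PBS and 68.4 and 49.4 CPM with exoCDN2 after 1 dose (2.81 ± 0.67, adjusted p = 0.0419). Il36g, an epithelial cytokine, was at 0.0408 and 0 CPM with PBS after 2 doses, at 4.46 and 1.31 CPM with exoCDN2 (adjusted p = 0.00373) and at 74.9 and 16.7 CPM with CDN2 (adjusted p = 8.65e-05). Keratinocyte sums in the same tumors were 83.1 and 0.341 CPM with exoCDN2 and 33.1 and 3.99 CPM with CDN2, and their part was not tested.

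Of 8 IL-1 family receptors tested, 1 was called higher with exoCDN2 after 1 dose and 5 after 2 doses, and 5 with CDN2 (20 µg) after 2 doses (4 without its tumor 1). Il1rl1, the receptor for IL-33, was at 1.23 and 0.979 CPM with PBS and 36.0 and 21.7 CPM with exoCDN2 after 1 dose (4.70 ± 0.85, adjusted p = 0.00927). Il1r2, a decoy receptor for IL-1, was at 0.408 and 0.22 CPM with PBS, 7.57 and 3.11 with exoCDN2 (4.05 ± 0.77) and 65.9 and 13.7 with CDN2 after 2 doses (7.04 ± 0.84). A total of 4 receptors were lower with exoCDN2 than with CDN2 after 2 doses (median -1.19), beside 12.0% of all genes called lower. These calls leaned on tumor 1 of CDN2, without which the median was -0.53. Of 15 signalling genes downstream, 2 were called after exoCDN2 once, the adaptor Myd88 (1.99 ± 0.28, adjusted p = 0.00187) and the NF-κB inhibitor Nfkbia (2.91 ± 0.66, adjusted p = 0.0322), and 3 after 2 doses.

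Genes that IL-1 and NF-κB are known to induce followed the IL-1 side of the set in part. Of 14 tested, 6 were called higher with exoCDN2 and 3 with CDN2 (20 µg) after 1 dose, and 8 and 14 after 2 doses. With CDN2 (100 µg) once, 7 were called higher (1.82% of all genes). Il1a (2.37, adjusted p = 0.0895), Il1b (3.08, adjusted p = 0.0626) and Il1rn (2.53, adjusted p = 0.0549) were also above PBS there without passing. From 1 to 2 doses of exoCDN2, 4 of the 14 were called lower (2.34% of all genes), and Il1a (-1.46), Il1b (-0.93) and Il1rn (-0.62) had negative values that did not pass. Il6 was at 0.241 and 0.32 CPM with PBS and 42.8 and 35.6 CPM with exoCDN2 after 1 dose (7.10 ± 1.12, adjusted p = 0.00376), but at 2.22 and 0.554 CPM after 2 doses of exoCDN2. Cxcl2, which encodes a chemokine that attracts neutrophils, was at 0.347 and 0.0439 CPM with PBS, 24.6 and 6.16 with exoCDN2 (6.23 ± 1.22) and 1446 and 201 with CDN2 after 2 doses. In the direct comparison after 2 doses, 12 of the 14 were lower with exoCDN2 (median -3.94), beside 12.0% of all genes called lower. These calls and their sizes leaned on tumor 1 of CDN2, without which the median was -2.05.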

How the data were processed

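RNA from 18 whole tumors in 9 groups of 2 was sequenced. After a quality filter the authors mapped reads with OSA (OmicSoft ArraySuite, GRCm38) and deposited expected counts per gene from RSEM on Ensembl R88 gene models, without normalization. Between 8.75% and 12.7% of a tumor's values were not whole numbers. RSEM divides reads shared by similar genes, so such counts are estimates. Symbols and positions came from GENCODE M21, which named 50376 of 50600 identifiers.

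Expected counts were rounded and fitted in edgeR 4.0.16 (R 4.3.3) by a quasi-likelihood model with a mean for each of 8 groups (16 tumors), TMM factors (0.818 to 1.07) and filterByExpr with a minimum count of 10. Standard errors are the log2 difference divided by the square root of F. Adjustment was by Benjamini-Hochberg over the 16927 genes. The 2 tumors of unstated amount were tested in a fit of all 18 tumors (17110 genes). CPM used TMM factors over 18 tumors, and log2 CPM a prior count of 2. A figure legend of the study gives 2 biological replicates per group. The p-values rest on the spread between tumors of the same group, pooled over the groups of the fit and shared across genes.

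All members, the pathway lists and the marker lists were chosen with earlier results of these data known. From each list, the rule named at most 3 called genes in each direction with the smallest p-values, not all of which are reported here. Pycard was singled out after its values were seen. Promoters came from RefSeq (GRCm38.p6). The procedure was tested on simulated data. Alternatives were DESeq2 1.42.0, RLE factors, no filter, no limit on the ratio, all 18 tumors in a single fit, only the groups compared, pooled PBS tumors, a replicate block and leaving out each tumor; list counts without tumor 1 of CDN2 (20 µg, 2 doses) were added after seeing the data.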

Additional observations from a re-analysis of the deposited data

Results flagged for a closer look

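For the following genes the effect of a treatment differed between 1 and 2 doses by an interaction term in edgeR, on the log2 scale. The exoCDN2 effect against PBS was larger after 2 doses for Il18bp (6.28, adjusted p = 0.000562), Gsdmd (3.69, adjusted p = 0.00137), Il18 (2.65, adjusted p = 0.00533) and Casp1 (3.42, adjusted p = 0.0131), 4 of the 10 genes beside 6.82% of all genes called. The PBS tumors of 2 doses were themselves lower than those of 1 dose in these genes, by -2.76 for Il18bp and -1.84 for Gsdmd, so part of each value lies in the PBS groups.

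The CDN2 (20 µg) effect was larger after 2 doses for 9 genes, beside 16.8% of all genes called. These were Il1a (4.93), Il18bp (4.27), Il1b (3.72), Il1rn (3.68), Nlrp3 (3.51), Gsdmd (3.37), Casp1 (3.30), Casp4 (1.91) and Il18 (1.82). Leaving out a single tumor gave between 4 and 10 such genes, with 4 without tumor 1 of CDN2 (1 dose) or PBS tumor 2 (2 doses) and 5 without PBS tumor 2 (1 dose). Part of these CDN2 values also lies in the PBS groups. From 1 to 2 doses of PBS, Casp4 changed by -1.23 and Il18 by -0.89. From 1 to 2 doses of CDN2 they changed by 0.67 and 0.93, and neither gene was called. Relative to CDN2, the step from 1 to 2 doses of exoCDN2 was smaller for Il1a (-4.66), Il1b (-4.10), Nlrp3 (-3.85) and Il1rn (-3.06) and larger for Il18bp (2.01).

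The tumors given CDN2 at an unstated amount belong to none of the main groups, and in them Il18bp (2.83) and Casp4 (2.06) were above the PBS tumors of 2 doses.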

How the results depend on the processing

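Of 72 calls, DESeq2, no filter and no limit on the ratio kept 72, RLE factors 68, the replicate block 67 and a fit of only the groups compared 51, the last with fewer tumors behind each variance. The fit of all 18 tumors kept 68 of 70 and pooled PBS tumors 29 of 29. With no filter 26 calls were gained, and the median prior degrees of freedom were infinite in place of 3.89. Same-numbered tumors were not paired (mean correlation of deviations 0.00223 over 28 pairs of groups, 4 over 0.1).

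Single calls were lost without a large move in the count for Il1a after 1 dose of CDN2 (20 µg) (adjusted p = 0.0514 with RLE factors, 0.0561 with the replicate block), for Casp1 in the step to 2 doses of exoCDN2 (0.0657 with all 18 tumors, 0.0562 with RLE factors, 0.0642 with the replicate block), for Aim2 after 2 doses of CDN2 (0.0617 with only the groups compared) and for Il1rn in the interaction between treatments (0.0619 with the replicate block). Counts of genes called that moved by over 1.5 times were these. For EVs against PBS, no filter gave 2. For CDN2 (20 µg) against PBS after 1 dose, no filter gave 6, DESeq2 5 and pooled PBS tumors 5. For CDN2 (100 µg) against PBS, all 18 tumors gave 3, no filter 6, the replicate block 2, DESeq2 5, only the groups compared 6 and pooled PBS tumors 5. For exoCDN2 against CDN2 after 1 dose, no filter gave 2, DESeq2 1 and only the groups compared 1. Between 100 and 20 µg, all 18 tumors gave 1, RLE factors 0, no filter 4 and the replicate block 0. Only the groups compared gave 0 for exoCDN2 against CDN2 after 2 doses, 1 for the step to 2 doses of CDN2, 4 for its interaction with PBS and 0 for the interaction between treatments. For PBS at 2 doses against 1, no filter gave 6 and DESeq2 4. For the unstated amount, no filter gave 6, DESeq2 4 and only the groups compared 6.

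Differences whose sign turned had not been called. Pooling the PBS tumors gave Aim2 0.17, Casp1 0.31 and Il18 0.17 for EVs, and Gsdmd 0.53, Il18 0.12 and Il18bp 0.10 for exoCDN2 after 1 dose. Il1rn between 100 and 20 µg was -0.01 with the replicate block. The Aim2 interaction between treatments was -0.05 with RLE factors and with DESeq2.

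Leaving out a tumor (a lone tumor is then assumed to vary as the other groups do) kept 228 of 360 calls and reversed 0. The genes called ranged from 1 to 3 for exoCDN2 against PBS after 1 dose, 0 to 4 for CDN2 (20 µg), 0 to 1 for 100 µg, 1 to 2 against EVs, 0 to 0 for 100 against 20 µg, 7 to 10 for exoCDN2 after 2 doses, 1 to 4 for exoCDN2 against CDN2, 0 to 1 for PBS, 1 to 4 and 1 to 8 for the step to 2 doses of exoCDN2 and CDN2, 3 to 5, 4 to 10 and 0 to 5 for the interactions and 0 to 4 for the unstated amount.

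Ranges that crossed 0 were, for EVs, Aim2 -0.70 to 0.18, Casp4 -0.10 to 0.63, Il1rn -0.06 to 1.15 and Il18 -0.53 to 0.05. After 1 dose they were Il18 -0.60 to 0.02 for exoCDN2 and -0.39 to 0.27 against EVs, Aim2 -0.00 to 0.99 for CDN2, and, for exoCDN2 against CDN2, Aim2 -0.37 to 0.63, Casp1 -0.86 to 0.03 and Il1rn -0.05 to 1.56. Between 100 and 20 µg they were Aim2 -0.73 to 0.27, Il1a -0.75 to 0.47 and Il1rn -0.54 to 1.07. For exoCDN2 against CDN2 after 2 doses they were Aim2 -0.36 to 0.63, Casp1 -1.11 to 0.50, Il18 -0.45 to 0.11 and Il18bp -0.17 to 0.63. For the exoCDN2 interaction they were Nlrp3 -1.21 to 0.39, Il1a -0.31 to 0.79 and Il1b -1.63 to 0.28, and for that between treatments Aim2 -0.56 to 0.58, Casp1 -0.61 to 0.98 and Gsdmd -0.17 to 0.68. Depth limits Il1a most, with 4 counts in a PBS tumor.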

Other observations

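Fas, which encodes a death receptor, was among the 3 genes most like Nlrp3 (Pearson's r of 0.982 over 16 tumors) and was the gene most like Il1b (0.987). Hcls1 (0.984) and Xdh (0.98), which encodes xanthine dehydrogenase, were most like Casp1. The antiviral gene Bst2 (0.987) was second for Gsdmd. Treml2 (0.957) was most like Aim2, and Itm2b (0.962) was most like Il18, the lowest leading value of the 10 being that of Aim2. These values carry no test, since the tumors share groups and cell mixtures.

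Of the other cell type markers, dendritic cell genes (8) summed to between 9.36 and 25.1 CPM over all 18 tumors and B cell genes (5) to between 1.12 and 1.96 CPM, both narrower in relative terms than the other immune lists. Fibroblast genes (6) summed to 1721 and 846 CPM in the tumors given 2 doses of CDN2 (20 µg) and to 352 and 354 CPM in their PBS tumors. Endothelial genes (5) were lowest in the tumors given CDN2 (20 µg) once, at 30.1 and 30.5 CPM against 80.5 and 84.5 CPM with PBS.

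Counts of T cell markers differed between the treatments of 2 doses, at 43.1 and 34 CPM with exoCDN2 and 9.37 and 9.94 CPM with CDN2, whereas Il18 and Casp1 overlapped between these groups.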
